A study of Mus musculus with 15 samples.

Results

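The nuclear-encoded subunits of the mitochondrial respiratory chain were followed through 15 RNA sequencing libraries of 105K tumors. Members were chosen by name alone, as every listed gene whose symbol begins with NDUFA, NDUFB, NDUFC, NDUFS or NDUFV and a number, with UQCR, with COX4 to COX8 or with ATP5, together with SDHA, SDHB, SDHC and SDHD. This gave 85 members of 24891 genes, of which 36 belong to complex I, 4 to complex II, 8 to complex III, 20 to complex IV and 17 to complex V. NDUFA4 and NDUFA4L2 were read with complex IV, where NDUFA4 is now placed. 105K is a Tsc2-deficient mouse line that arose in a kidney tumor of a Tsc2+/− animal. They were grown under the skin of wild-type C57BL/6J males aged 6 weeks after transduction with a non-targeting shRNA (sh-NC) or with 1 of 2 shRNAs against B7-H3, the product of Cd276. The first of these is named sh-B7-H3 (1) and the second is named sh-B7-H3 (2). The lines were puromycin-selected mixed pools and not single clones. The 5 groups hold 3 libraries each. Bulk tumors carried sh-NC or the first shRNA, and sorted cells, those left after magnetic beads had removed non-tumor cells, carried sh-NC or either shRNA.

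The respiratory chain sits in the inner mitochondrial membrane. Complex I takes electrons from NADH and complex II takes them from succinate, both pass them through ubiquinone to complex III and cytochrome c, and complex IV hands them to oxygen. Complexes I, III and IV move protons out of the matrix as they do so, and complex V, the ATP synthase, uses the return flow to make ATP. All complexes except complex II also hold subunits encoded by mitochondrial DNA, and those 13 genes were not analysed here. In Tsc2-deficient cells mTORC1 is constantly active, and mTORC1 is known to promote mitochondrial gene expression and respiration.

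Many of these genes share short promoter sequences, and the stretches that carry them are shown here because members of different complexes hold the same letters. RefSeq promoters of build GRCm38.p6 (mm10), 250 bases before to 50 after the start, were found for 68 of the 85 members, 2 of them under a newer symbol. They were searched on both strands for GCATGCGC, bound by NRF1, AAGATGGC, bound by YY1, CCGGAAGT, bound by ETS factors such as GABPA, and TCAAGGTCA, bound by the estrogen-related receptors. In no promoter did a match to one motif overlap a match to another. The capitals mark the motif or its reverse complement, each line runs 5′ to 3′ on the strand of the gene, and every stretch lies before the start.
SDHB: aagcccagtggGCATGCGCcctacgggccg
NDUFA6: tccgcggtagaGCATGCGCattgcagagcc
NDUFA11: ctgcactgcgcGCATGCGCgcacgccttgt
COX6A1: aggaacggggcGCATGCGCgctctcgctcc
ATP5G2: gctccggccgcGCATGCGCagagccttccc
ATP5K: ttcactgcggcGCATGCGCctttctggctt
ATP5G3: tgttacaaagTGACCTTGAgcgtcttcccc
UQCR11: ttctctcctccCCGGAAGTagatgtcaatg
These lie at chr4:140961206-140961235 (plus strand) for SDHB, chr15:82354356-82354385 (minus) for NDUFA6, chr17:56717693-56717722 (plus) for NDUFA11, chr5:115349100-115349129 (minus) for COX6A1, chr15:102671069-102671098 (minus) for ATP5G2, chr5:108434429-108434458 (minus) for ATP5K, chr2:73911359-73911388 (minus) for ATP5G3 and chr10:80406869-80406898 (minus) for UQCR11.

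The NRF1 letters were in 10 of the 68 member promoters and in 3.05% of all 27025 genes with a promoter. Among the stretches shown, in NDUFA11, COX6A1, ATP5G2 and ATP5K they are preceded by GC, so that the same place reads as the motif on both strands. Their first base lay 54 bases before the start in SDHB, 40 in ATP5G2, 48 in ATP5K, 58 in NDUFA11, 83 in NDUFA6 and 160 in COX6A1. The YY1 letters were also in 10 of 68 promoters, against 3.19% of all genes, and in 8 of those they began between 23 and 39 bases after the start. The ETS letters were in 5 of 68 against 4.31%, and the estrogen-related receptor letters were in ATP5G3 and SDHD against 0.466%. In all, 26 of the 68 promoters held at least 1 of the 4 motifs. A match describes letters in this window and no binding was measured.

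As a check of the labels, CD276, the target of the shRNAs, was between 17.3 and 33.99 scaled FPKM in sorted sh-NC cells, 7.29 and 13.96 with sh-B7-H3 (1), and 23.3 and 25.7 with sh-B7-H3 (2), and the bulk groups overlapped (20.8 to 23.5 with sh-NC, 17.8 to 24.4 with sh-B7-H3 (1)). The target was therefore lower in 1 of the 3 groups labeled as knockdown, and group names below are those of the labels. FPKM are fragments per length of transcript and depth of library, and scaled FPKM were divided by 1 factor per library so that typical genes match, because MIR6236 took 6.01% to 79.7% of the summed FPKM. The tables hold no read totals, and depth relative to the deepest library was between 0.468 and 1. Sorted sh-B7-H3 (2) replicate 1 stood apart by its leukocyte markers, which summed to 380 scaled FPKM against 14.9 and 17.0 in replicates 2 and 3.

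Respiratory chain genes were abundant in every group. In sorted sh-NC cells the median member was at 133 scaled FPKM, and the mean reached 10 for 77 of 85 members. On this per-length scale, medians over members were 94.2 for complex I, 89.2 for complex II, 165 for complex III, 182 for complex IV and 277 for complex V. COX4I1, the common form of a regulatory complex IV subunit, was the highest member at 594 ± 211 (SD, n = 3), followed by ATP5B, the catalytic beta subunit of ATP synthase, at 580 ± 118, and these did not differ beyond their spread. The highest complex I member was NDUFB9, an accessory subunit of the membrane arm, at 286 ± 95.5. Core subunits were lower, with NDUFV1, which binds NADH, at 80.4 ± 12.4 and NDUFS1, the largest iron-sulfur subunit, at 32.8 ± 4.40. NDUFA11 (12.4 ± 4.40) was the lowest of complex I and ATP5S (5.74 ± 0.658), an ATP synthase coupling factor, the lowest of complex V. In complex II, the flavin-binding SDHA was at 51.3 ± 10.1, the iron-sulfur subunit SDHB at 83.1 ± 19.1 and the membrane anchor SDHD at 145 ± 56.7. In complex III, the small subunit UQCR10 was at 304 ± 129, while the core protein UQCRC1 (78.2 ± 10.1) and the Rieske iron-sulfur protein UQCRFS1 (74.5 ± 24.5) were close to each other. Values for NDUFB4 and NDUFB4C are uncertain, since the listed symbols are near-copies that could share reads.

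**Figure D1:**
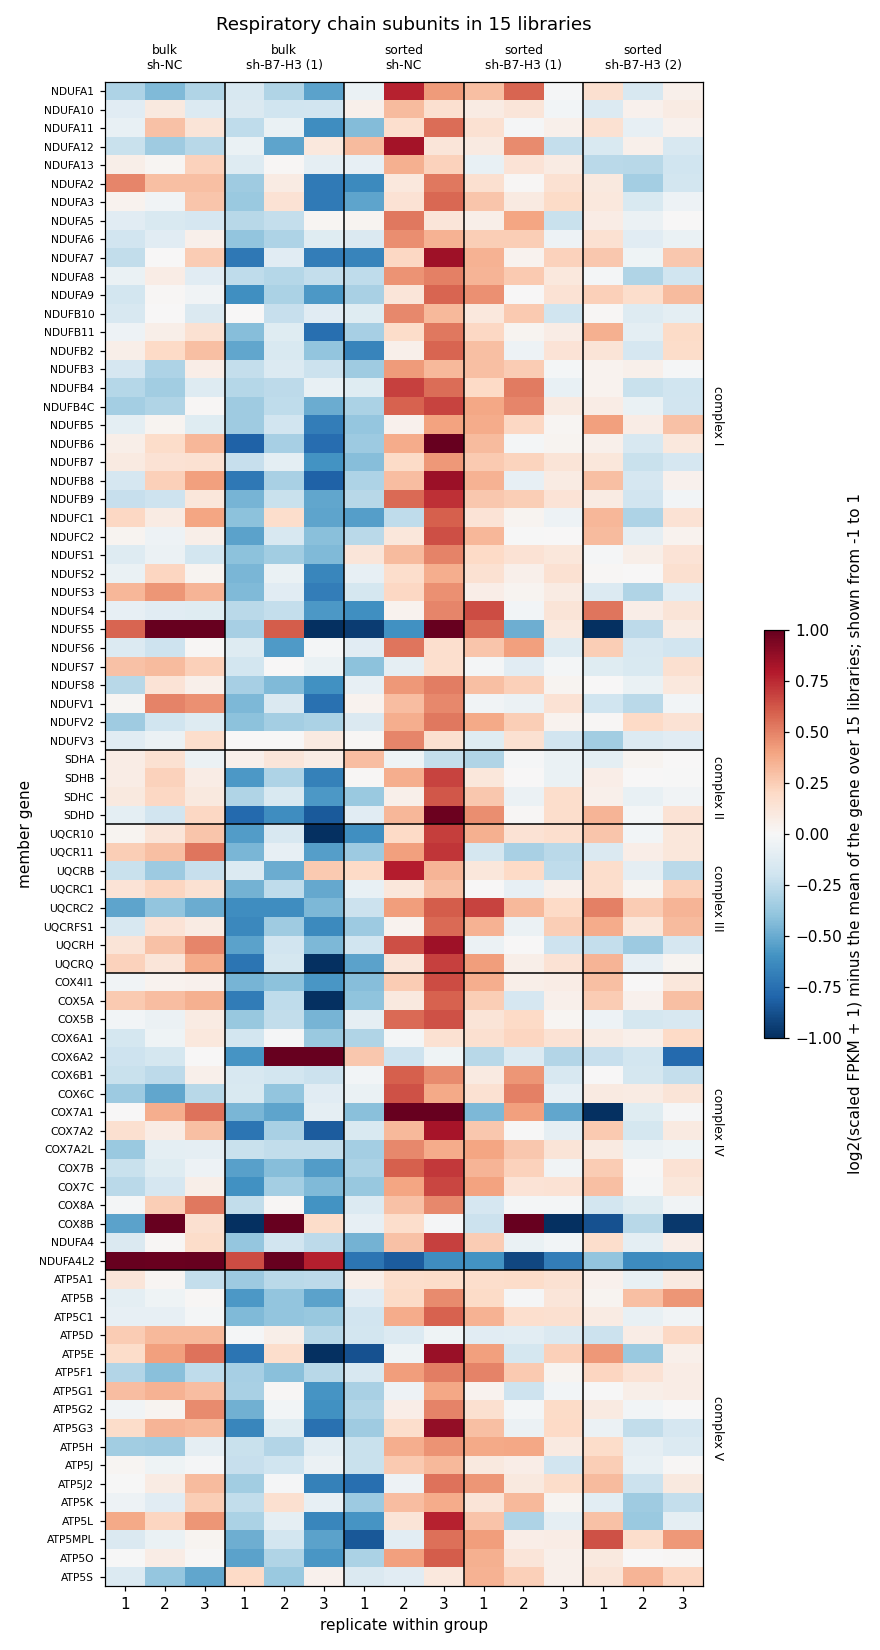
Level of the 81 members whose mean reached 1 scaled FPKM (rows, by complex) in each of 15 libraries (columns, by group and replicate), as log2(scaled FPKM + 1) minus the mean of the gene over the 15 libraries, with colors ending at −1 and 1. Bulk sh-B7-H3 (1) replicates 1 and 3 and sorted sh-NC replicate 1 are blue for most members, and sorted sh-NC replicate 3 is red for most.

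Members moved together from library to library, most of all in sorted sh-NC cells. Among 81 members whose mean reached 1 scaled FPKM, sorted sh-NC replicate 1 was the lowest of its group for 77 and replicate 3 the highest for 62. The mean of log2(scaled FPKM + 1) over all members was 6.05, 6.55 and 6.77 in sorted sh-NC replicates 1, 2 and 3. It was 6.50, 6.41 and 6.31 with sh-B7-H3 (1), and 6.36, 6.23 and 6.32 with sh-B7-H3 (2). The sorted sh-NC group therefore spanned the whole range of the other sorted cells. In bulk tumors this mean was 6.29, 6.37 and 6.45 with sh-NC and 5.96, 6.20 and 5.92 with sh-B7-H3 (1), and these groups did not overlap. Replicate 2 was the highest of the bulk sh-B7-H3 (1) group for 57 of 81 members.

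**Figure D2:**
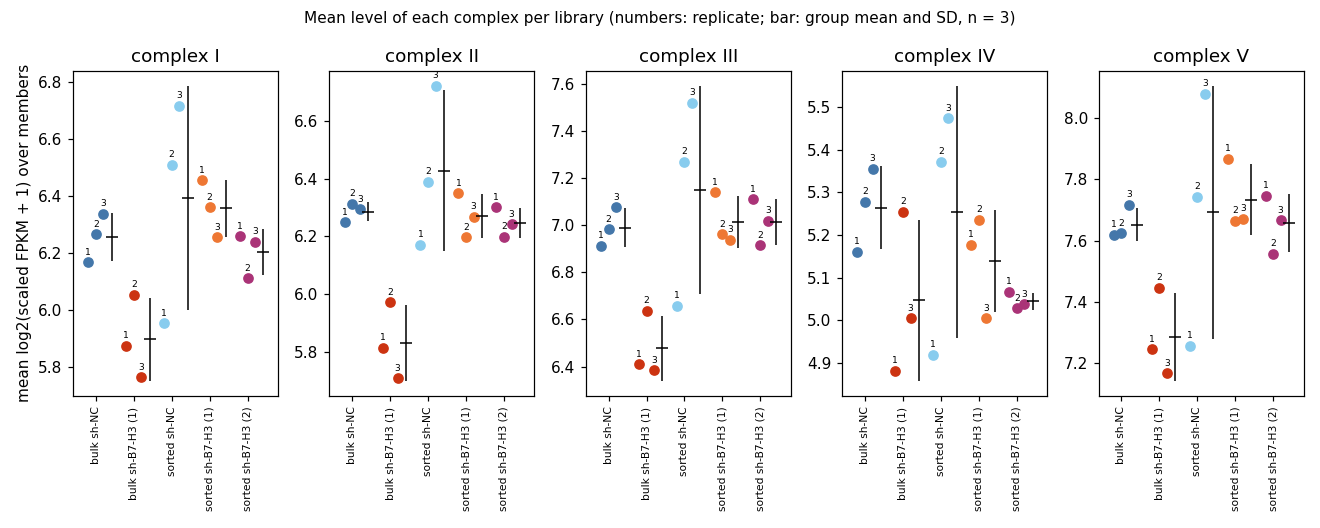
Mean of log2(scaled FPKM + 1) over the members of complexes I to V (panels) in each library (points, numbered by replicate), with the group mean and SD (n = 3) beside them. For complexes I, II, III and V the 3 bulk sh-B7-H3 (1) libraries lie below the 3 bulk sh-NC libraries, for complex IV replicate 2 lies among them, and sorted sh-NC libraries spread the most.

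By complex, the bulk groups were apart for complex I (6.17 to 6.34 with sh-NC, 5.76 to 6.05 with sh-B7-H3 (1)), complex II (6.25 to 6.31 and 5.71 to 5.97), complex III (6.91 to 7.08 and 6.38 to 6.64) and complex V (7.62 to 7.72 and 7.17 to 7.45). For complex IV they overlapped (5.16 to 5.35 and 4.88 to 5.25). The complex IV mean includes rare tissue isoforms that were high in bulk sh-B7-H3 (1) replicate 2, described further on. These means are descriptions and were not tested.

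The comparison of bulk tumors with sh-B7-H3 (1) and sh-NC asks how the tumor as a whole differed with the shRNA. Members that fell in the sh-B7-H3 (1) tumors were found in all 5 complexes. Of 82 members tested, 28 fell and none rose, while over all 11800 genes tested 8.52% fell and 12.8% rose. The median log2 fold change was −0.37 over members and 0.02 over all genes, and 71 of 82 members were below 0. In 47 members every sh-B7-H3 (1) tumor was below every sh-NC tumor, against 20.1% of all genes tested. In bulk tissue, fewer cells of a type and less RNA per cell cannot be told apart. The number of calls depended on single tumors. Without sh-B7-H3 (1) replicate 2 it was 47 (46 lower, 1 higher), while 16.2% of all genes were called lower. Without replicate 3 it was 12, all lower, against 5.04% of all genes, and without replicate 1 it was 1 (COX6A2, higher), with no member lower against 1.38%. Without sh-NC replicates 1, 2 and 3 it was 16, 4 and 2, all lower, against 3.74%, 2.6% and 1.67% of all genes. With FPKM as deposited, 3 members fell and 1 rose, but the median of members stayed at −0.33, and over all alternatives it lay between −0.449 and −0.224.

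**Figure D3:**
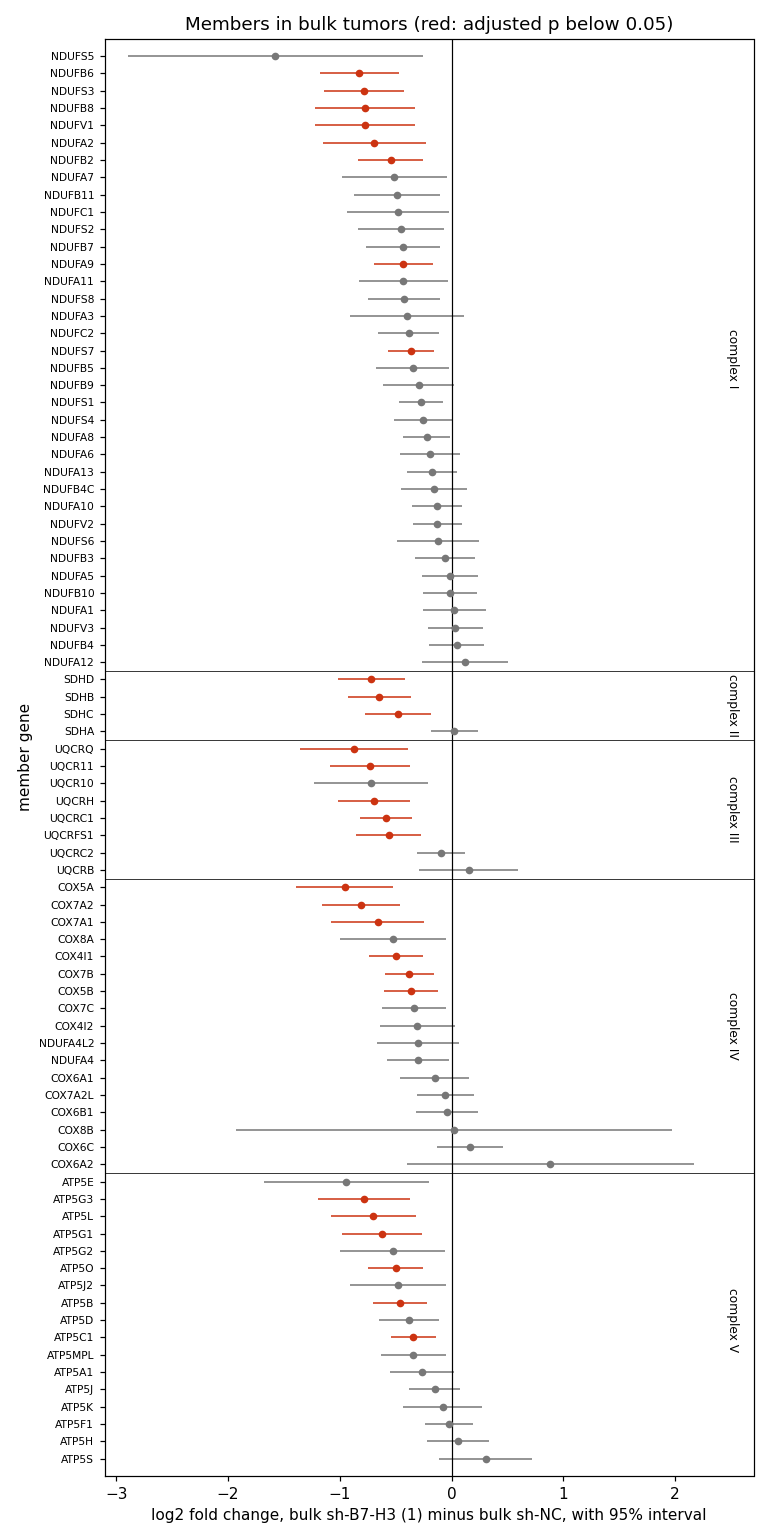
Log2 fold change of each tested member in bulk tumors, sh-B7-H3 (1) minus sh-NC, with its 95% interval from limma (red, adjusted p below 0.05), sorted within complexes I to V. All 28 called members lie between −0.96 and −0.34, and NDUFS5 and COX8B have the widest intervals.

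In complex I, 8 of 36 members fell, with a median of −0.36. NDUFB6, an accessory subunit of the membrane arm, was at 66.7, 72.6 and 80.7 scaled FPKM in sh-NC tumors and at 36.1, 50.6 and 37.3 with sh-B7-H3 (1), with no overlap, a change of −0.82 ± 0.15 on the log2 scale (SE, adjusted p = 0.0130). NDUFV1 was at 66.7, 93.3 and 90.5 and then at 47.9, 59.3 and 38.8, a change of −0.77 ± 0.19 (adjusted p = 0.0323). The core subunit NDUFS3 fell by 0.78 on the log2 scale, NDUFB8 by 0.78, NDUFA2 by 0.69, NDUFB2 by 0.54, NDUFA9 by 0.43 and the core subunit NDUFS7 by 0.36. NDUFS1 was at −0.28 ± 0.08 and missed the threshold (adjusted p = 0.0541). The lowest value was that of NDUFS5, an accessory subunit, at −1.58 ± 0.56 (adjusted p = 0.0829). Its libraries overlapped, with 19.9, 30.9 and 38.5 scaled FPKM against 10.1, 20.3 and 3.19, and the value ran from −2.13 without sh-B7-H3 (1) replicate 2 to −0.95 without replicate 3. The highest was NDUFA12, an accessory subunit, at 0.12 ± 0.16 (69.4, 63.3 and 66.9 against 77.5, 55.9 and 87.3), and this value turned to −0.01 without sh-B7-H3 (1) replicate 3.

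In complex II, 3 of 4 members fell, with a median of −0.56 over all 4. SDHB was at 67.1, 75.03 and 67.2 scaled FPKM with sh-NC and at 42.5, 51.2 and 39.6 with sh-B7-H3 (1), a change of −0.65 ± 0.12 (adjusted p = 0.0133). SDHD fell from 97.7, 91.3 and 120 to 60.5, 67.5 and 57.9, by 0.72 ± 0.13 on the log2 scale (adjusted p = 0.0122), and SDHC, the other membrane anchor, fell by 0.48. The flavoprotein SDHA was at 52.9, 56.1 and 48.3 with sh-NC and overlapped with sh-B7-H3 (1) at 52.1, 54.7 and 52.9. It changed by 0.02 on the log2 scale, with a 95% interval from −0.19 to 0.23 that excludes a fall of the size seen for SDHB.

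Complex III had the lowest median (−0.64), and 5 of its 8 members fell. UQCRQ, a small subunit at the ubiquinone-binding part, was at 92.2, 85.8 and 102 scaled FPKM with sh-NC and at 47.0, 69.7 and 39.0 with sh-B7-H3 (1), a change of −0.87 ± 0.20 (adjusted p = 0.0287). UQCRC1 was at 79.4, 83.6 and 80.2 against 51.6, 60.1 and 50.1, and it changed by −0.58 ± 0.10 (adjusted p = 0.0102). UQCRFS1 changed by −0.56 ± 0.12 (adjusted p = 0.0239), UQCR11 fell by 0.73 and the hinge protein UQCRH by 0.70. UQCRC2, the partner core protein of UQCRC1, was at −0.09, and UQCRB, another small subunit, was the highest at 0.15 ± 0.19 (162, 147 and 161 against 172, 134 and 228). UQCRB moved to −0.04 without sh-B7-H3 (1) replicate 3.

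In complex IV, 6 of 17 tested members fell. COX5A, a nuclear-encoded subunit at the matrix side that lies at chr9:57517328-57532427, was at 266, 276 and 284 scaled FPKM with sh-NC and at 136, 186 and 111 with sh-B7-H3 (1). It was 1.94-fold lower on the log2(value + 1) scale (−0.96 ± 0.18, adjusted p = 0.0156). COX4I1 was at 495, 518 and 523 against 367, 380 and 338, a change of −0.50 ± 0.10 (adjusted p = 0.0185). COX7A2 fell by 0.81, COX7A1 by 0.66, COX7B by 0.38 and COX5B by 0.36. COX6C, by contrast, was at 356, 318 and 378 with sh-NC and at 412, 349 and 423 with sh-B7-H3 (1), a value of 0.17 that did not pass the test. COX6B1 (−0.04) and COX6A1 (−0.15) were also near 0, with NDUFA4 at −0.30 and COX8A at −0.53, none past the threshold.

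In complex V, 6 of 17 members fell. ATP5G3, 1 of 3 genes for the c subunit of the membrane ring, was at 322, 359 and 354 scaled FPKM with sh-NC and at 181, 261 and 169 with sh-B7-H3 (1), a change of −0.78 ± 0.17 (adjusted p = 0.0244). ATP5G1, another c subunit gene, fell by 0.62, while ATP5G2 was at −0.52 and missed the threshold. ATP5B was at 471, 489 and 507 against 338, 382 and 347, and changed by −0.46 ± 0.10 (adjusted p = 0.0249). The gamma subunit gene ATP5C1 fell by 0.34, ATP5O, of the peripheral stalk, by 0.50 and ATP5L by 0.70. The alpha subunit gene ATP5A1 was at −0.27 ± 0.12 (adjusted p = 0.146). ATP5E, the epsilon subunit, had the lowest value (−0.94 ± 0.31, adjusted p = 0.0710), with no overlap between groups (306, 357 and 392 against 161, 303 and 123). ATP5S had the highest (0.31 ± 0.18, adjusted p = 0.234).

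Other values moved with the same groups. Summed scaled FPKM of 10 fibroblast markers were between 135 and 250 in sh-NC tumors and between 415 and 837 in sh-B7-H3 (1) tumors, and 6 of the 8 tested rose. Sums of 16 skeletal muscle markers were 5.79 to 30.3 and 58.6 to 982, with 8 of 12 tested rising, those of 10 epithelial markers 999 to 1139 and 1399.9 to 1662 (6 of 10 rising), and those of 9 T cell markers 3.09 to 3.26 and 7.16 to 22.7. Of the genes counted as rising, 3 of the muscle markers were under the filter in all sh-NC tumors, as were both tested T cell markers, so that these passed only through the sh-B7-H3 (1) tumors. Sums of leukocyte, macrophage, endothelial and adipocyte markers overlapped between the groups, though CD68 rose and CLDN5 fell, and no marker of these 8 lists was at 0 throughout a bulk group. The part of these cells in the member values was not tested. Transcript length moved with the fold changes as well. Over the 11352 tested genes with a protein-coding transcript (96.2% of those tested), the log2 fold change correlated with length at Spearman's rho 0.30 and with GC content at −0.21, a description across genes, which are not independent. Members have short transcripts, with a median of 659 bases against 2104.5 for tested genes. Among all tested genes with transcripts under 1000 bases the median log2 fold change was −0.12 and 13.5% were called lower, while the 62 members of that size had a median of −0.36 with 17 called. With each library's length and GC trend removed, an alternative chosen after the data were seen, 21 members fell and their median was −0.22.

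In sorted cells, those left after bead depletion of non-tumor cells, members were compared between each shRNA and sh-NC. The sorted libraries held other markers as well, with skeletal muscle sums of 57.4 to 143 and fibroblast sums of 53.4 to 182 scaled FPKM. Muscle sums were higher in sorted sh-NC libraries (84.0 to 143) than in bulk sh-NC tumors (5.79 to 30.3). With sh-B7-H3 (1), limma called none of 80 tested members in either direction, and none had an unadjusted p under 0.05, while 9.03% of the 11163 genes tested rose and 4.38% fell. An unadjusted p under 0.05 was reached by 2772 of these genes. The median of members was −0.05 and that of all genes 0.00. UQCRB was the only tested member with every sh-B7-H3 (1) library below every sh-NC library, against 14.4% of all genes. The extremes by complex were NDUFS4 (0.28) and NDUFA12 (−0.32) in complex I, SDHC (0.03) and SDHB (−0.33) in complex II, UQCR10 (0.13) and UQCRH (−0.52) in complex III, COX6A1 (0.23) and COX7A1 (−0.87) in complex IV, and ATP5J2 (0.33) and ATP5L (−0.14) in complex V. None passed the test, and with sh-NC libraries this far apart the intervals are wide. That of SDHB ran from −0.76 to 0.09. Without sh-NC replicate 1, 5 members fell (COX7A1, UQCRH, UQCR11, SDHB and COX5B), against 6.31% of all genes, and the median was −0.25.

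With sh-B7-H3 (2), 1 of 80 tested members was called, COX8B, which fell by 0.73 ± 0.20 on the log2 scale (adjusted p = 0.0363). It was at 1.61, 2.13 and 1.75 scaled FPKM in sh-NC cells and at 0.516, 1.29 and 0.420 with sh-B7-H3 (2), close to the filter of 1, which it passed through the sh-NC libraries. Without the filter, with all 15 libraries in 1 fit, or without any 1 library of either group except sh-NC replicate 1 and sh-B7-H3 (2) replicate 2, it was not called (adjusted p from 0.0708 to 0.476). Over all 11243 genes tested, 11.7% rose and 7.44% fell. The median of members was −0.17, that of all genes 0.01, and 8 members had an unadjusted p under 0.05, all lower. Over all genes tested, 3559 had such a p, 1583 of them lower, a larger share than among members. In 6 members every library lay below every sh-NC library (17.1% of all genes), among them NDUFV1 at 57.4, 54.5 and 64.7 against 67.5, 81.6 and 92.1 (−0.44 ± 0.15, adjusted p = 0.0922). Extremes were NDUFS4 (0.27) and NDUFA12 (−0.51) in complex I, SDHA (−0.03) and SDHB (−0.33) in complex II, UQCRFS1 (0.19) and UQCRH (−0.69) in complex III, COX6A1 (0.17) and COX7A1 (−1.11) in complex IV, and ATP5MPL (0.55) and ATP5G3 (−0.39) in complex V. Without sh-NC replicate 1 the count was 28, all lower, while 13.7% of all genes were called lower, and the median was −0.39. Without sh-B7-H3 (2) replicate 1, the library with leukocyte markers, no member was called and the median was −0.20. The comparisons of either shRNA with sh-NC share the sh-NC libraries and are not independent of each other.

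**Figure D4:**
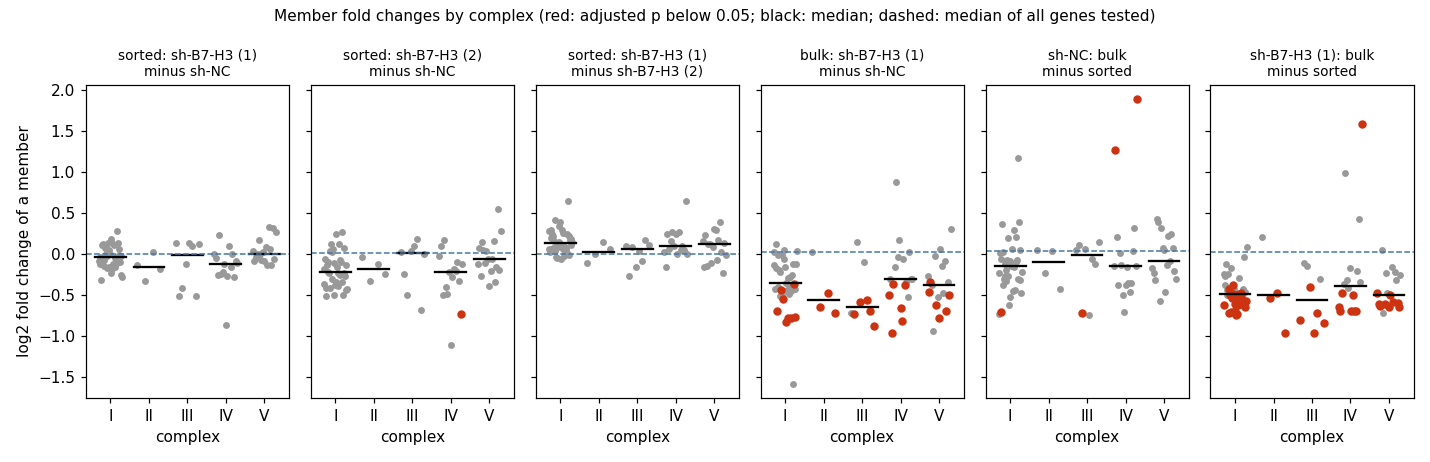
Log2 fold change of each tested member (points, red where adjusted p was below 0.05) by complex in 6 comparisons, with the median of each complex (black line) and that of all genes tested (dashed line). Red points gather below 0 in bulk sh-B7-H3 (1) against sh-NC (28 lower) and in bulk against sorted sh-B7-H3 (1) (45 lower), and are few elsewhere.

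Set directly against each other, the 2 shRNAs gave no called member of 80 in sorted cells, with 11 at an unadjusted p under 0.05, and 1.76% of 11239 genes were called higher and 1.64% lower with sh-B7-H3 (1). Of these genes 2471 had an unadjusted p under 0.05 in either direction, a larger share than among members. The median was 0.10, and 63 members were higher with sh-B7-H3 (1). Libraries of these groups with the same replicate number deviated together. The labels state no pairing, and the blocked fit is described here because of this correlation in the same data. With the replicate number as a block, 7 of 80 members were higher with sh-B7-H3 (1) and none lower. This share was close to that of all genes, of which 9.03% were higher. NDUFA8, an accessory subunit of complex I, was at 142, 134 and 120 scaled FPKM with sh-B7-H3 (1) and at 110, 90.4 and 96.9 with sh-B7-H3 (2), a paired change of 0.41 ± 0.07 (adjusted p = 0.0283). ATP5G3 changed by 0.30 ± 0.06 in the paired fit (adjusted p = 0.0410). In the fit without pairing, leaving out sh-B7-H3 (2) replicate 1 gave 1 member higher with sh-B7-H3 (1).

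Whether the sh-B7-H3 (1) effect differed between bulk tumors and sorted cells was tested as an interaction. None of 82 members was called (0.249% and 0.216% of 12062 genes in the positive and negative direction), and 7 had an unadjusted p under 0.05, all positive, that is with the more negative effect in bulk tumors. These were UQCRQ (0.99, interval 0.14 to 1.84), COX5A (0.91, 0.16 to 1.65), NDUFS3 (0.68, 0.15 to 1.20), UQCRFS1 (0.66, 0.02 to 1.30), UQCRC1 (0.46, 0.11 to 0.82), NDUFS7 (0.42, 0.01 to 0.83) and ATP5D (0.38, 0.05 to 0.72), with adjusted p from 0.264 to 0.335 by limma. The fall in bulk tumors is therefore not shown to differ from the values in sorted cells. Over all 12062 genes, 1767 had an unadjusted p under 0.05 by limma, 880 of them negative. The share among members was thus not larger than among all genes. The median of members was 0.33 and that of all genes −0.01, with 68 of 82 members above 0. Over all alternatives the median of members lay between 0.145 and 0.479, a description that was not tested. Among the COX5A libraries, sorted sh-NC cells were at 168, 238 and 335 scaled FPKM and sorted sh-B7-H3 (1) cells at 263, 198 and 230.

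Bulk tumors were next set against sorted cells that carried the same shRNA. With sh-NC, 2 of 82 members were higher in bulk tumors and 2 lower, against 10.4% and 6.48% of 11418 genes, with a median of −0.13. The higher ones were COX4I2 and NDUFA4L2, which reached the filter only through bulk tumors and are not read as results. The lower members were UQCRB (162, 147 and 161 scaled FPKM in bulk, 218, 326 and 239 sorted; −0.71 ± 0.18, adjusted p = 0.0352) and NDUFA12 (−0.71 ± 0.19, adjusted p = 0.0434). UQCRC2 just missed the threshold (−0.74 ± 0.21, adjusted p = 0.05003). Other low ends were NDUFA1 (−0.73), SDHD (−0.43), COX6C (−0.70) and ATP5F1 (−0.58), and high ends were NDUFS5 (1.17), SDHA (0.05), UQCRQ (0.15) and ATP5D (0.43), none of them called. Without sorted sh-NC replicate 1, 28 members were lower and 3 higher in bulk tumors, while 16.9% of all genes were called lower. Without any 1 bulk sh-NC tumor no member was called. The median of members was −0.34 without sorted sh-NC replicate 1 and 0.07 without replicate 3.

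With sh-B7-H3 (1), 45 of 81 members were lower in bulk tumors and 1 was higher (NDUFA4L2, again through the bulk tumors alone), against 17.1% and 21.1% of 11677 genes. The median of members was −0.48 and that of all genes 0.03. In 53 members every bulk tumor was below every sorted library, against 25.0% of all genes tested, and 24.6% of tested genes with transcripts under 1000 bases were called lower. The lower members were 21 of 36 in complex I, 3 of 4 in complex II, 5 of 8 in complex III, 7 of 16 in complex IV and 9 of 17 in complex V. UQCRC2 was at 42.1, 42.1 and 47.5 scaled FPKM in bulk tumors and at 105, 81.9 and 75.3 in sorted cells, a change of −0.97 ± 0.14 (adjusted p = 0.00324). SDHD was at 60.5, 67.5 and 57.9 against 145, 105 and 118 (−0.96 ± 0.14, adjusted p = 0.00308), and NDUFS1 at 19.4, 20.2 and 18.9 against 30.05, 28.9 and 28.2 (−0.55 ± 0.09, adjusted p = 0.00524). ATP5A1 (−0.47) and ATP5B (−0.60) were both lower, at adjusted p = 0.0120 and 0.00845. SDHA differed here, with all bulk tumors (52.1, 54.7 and 52.9) above all sorted libraries (40.6, 49.8 and 48.1). Its change of 0.21 ± 0.11 did not pass the test (adjusted p = 0.173). Without bulk sh-B7-H3 (1) replicate 1 the count fell to 11 lower and 1 higher, and without sorted sh-B7-H3 (1) replicate 1 to 22 lower and 1 higher, while 6.6% and 9.27% of all genes were called lower. FPKM as deposited shifted the median of all genes to −0.23 and gave 62 lower members with a median of −0.78. The bulk-to-sorted comparisons in sh-NC and in sh-B7-H3 (1) share no library. Of the 81 members tested in both, 50 (61.7%) were below 0 and 4 above 0 in both, and none was called lower in both. Over the 11172 genes tested in both, 34.05% were below 0 in both and 375 were called lower in both. Bulk tumors held leukocyte marker sums of 372 to 704 scaled FPKM against 15.2 to 22.5 in the sorted libraries of these comparisons, macrophage sums of 899 to 1620.2 against 36.7 to 98.8, and endothelial sums of 34.7 to 68.7 against 0.621 to 1.16. Skeletal muscle sums went the other way with sh-NC (5.79 to 30.3 in bulk, 84.0 to 143 sorted) and overlapped with sh-B7-H3 (1). Epithelial sums were lower in bulk tumors with sh-NC (999 to 1139 against 1144 to 1300). They were also lower with sh-B7-H3 (1) (1399.9 to 1662 against 2176 to 2594). The share of any of these cells in the member values was not tested.

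Complex IV has subunits with tissue forms. COX4I2, the hypoxia-induced and lung form of COX4, at chr2:152753916-152765039, was at 1.29, 1.17 and 1.79 scaled FPKM in bulk sh-NC tumors and 1.17, 0.827 and 0.857 in bulk sh-B7-H3 (1) tumors. It was listed at 0 in 8 of 9 sorted libraries and at 0.0471 in sorted sh-B7-H3 (1) replicate 3. NDUFA4L2, a hypoxia-induced relative of NDUFA4 at chr10:127509274-127517154, was at 3.60, 2.73 and 3.27 in bulk sh-NC tumors, 1.96, 3.10 and 2.21 in bulk sh-B7-H3 (1) tumors, and between 0 and 0.426 in sorted libraries. All bulk values of both genes lay above all sorted values. Their calls between bulk and sorted libraries, counted above, are not read as results. The genes reached the filter of 1 scaled FPKM only through bulk tumors. The highest sorted value of NDUFA4L2 was that of sh-B7-H3 (2) replicate 1, the sorted library with leukocyte markers, whose endothelial markers summed to 29.9 against 0.621 to 1.99 in the other sorted libraries.

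COX6A2, COX7A1 and COX8B are the forms of heart and skeletal muscle, and COX7A1 and COX8B are also used by brown fat. COX6A2 was at 0.963, 9.26 and 5.18 scaled FPKM in bulk sh-B7-H3 (1) replicates 1, 2 and 3, and between 0.726 and 2.56 in all other libraries. COX8B was highest in bulk sh-B7-H3 (1) replicate 2 (10.5) and bulk sh-NC replicate 2 (6.48), and was between 0.278 and 5.05 elsewhere. The skeletal muscle markers summed to 58.6, 982 and 304 in bulk sh-B7-H3 (1) replicates 1, 2 and 3, and were at most 143 in other libraries, so the order of replicates was that of COX6A2. Adipocyte markers summed to 321 in bulk sh-B7-H3 (1) replicate 2 and 76.7 in bulk sh-NC replicate 2, each the highest of its group. The change of COX6A2 in bulk tumors (0.88 ± 0.54, adjusted p = 0.263) did not pass the test. COX7A1 did not take this order. It was at 7.54, 9.92 and 11.4 in bulk sh-NC and 5.19, 4.91 and 6.99 in bulk sh-B7-H3 (1) tumors, a fall of 0.66 ± 0.18 on the log2 scale (adjusted p = 0.0401), and at 5.37, 20.7 and 17.2 in sorted sh-NC cells against 2.79 to 10.3 with either shRNA. COX6B2, a testis form, was at most 0.433, and COX7B2 and COX8C were listed at 0 in all 15 libraries. The common forms were far higher, as in bulk sh-NC tumors with 293 ± 28.4 for COX6A1, 385 ± 46.5 for COX6B1, 132 ± 10.4 for COX7A2, 109 ± 6.77 for COX7B, 494 ± 93.8 for COX8A and 197 ± 22.2 for NDUFA4.

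**Figure D5:**
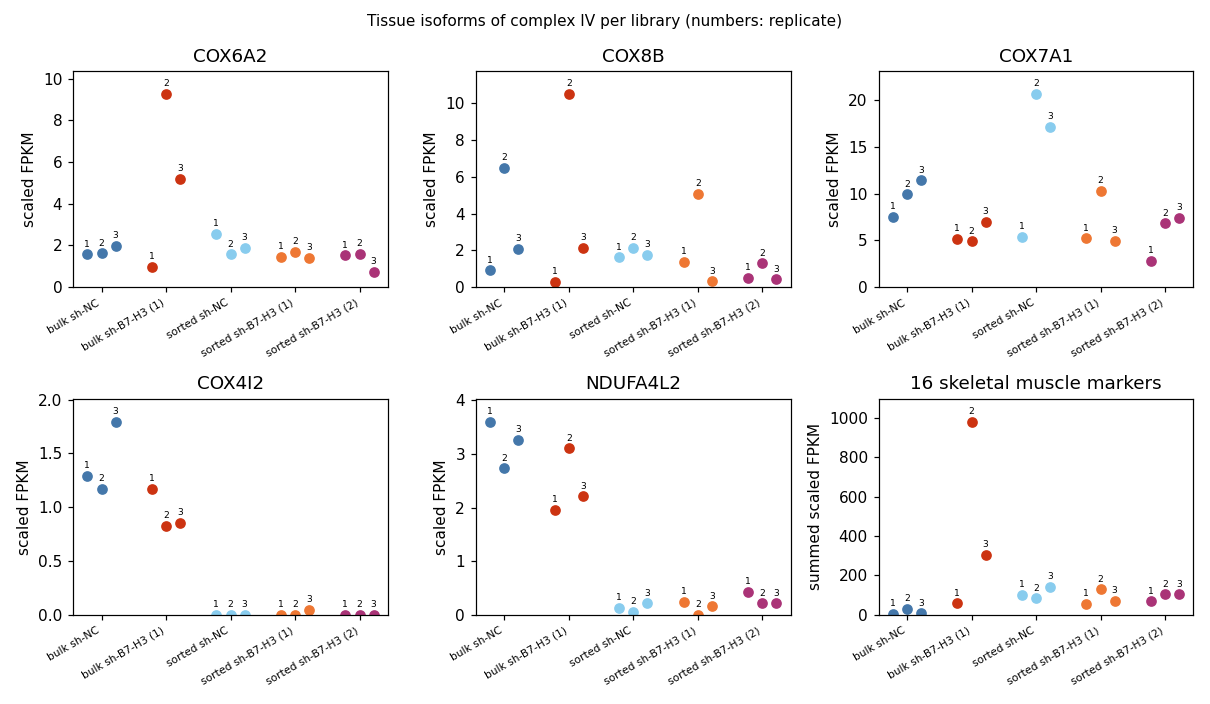
Scaled FPKM of 5 tissue forms of complex IV subunits and the sum of 16 skeletal muscle markers in each library (points, numbered by replicate), by group. COX6A2 and the muscle markers are highest in bulk sh-B7-H3 (1) replicates 2 and 3, and COX4I2 and NDUFA4L2 are near 0 in all sorted groups.

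Other genes of mitochondrial function were read beside the members in bulk tumors, sh-B7-H3 (1) against sh-NC, where the all-gene background was the 8.52% lower and 12.8% higher given above. Of 78 mitochondrial ribosome proteins, which translate the subunits encoded in mitochondrial DNA, 13 fell and none rose, with a median of −0.26. MRPL53 had the lowest value (−0.74 ± 0.20, adjusted p = 0.0398) and MRPL57 the highest (0.20, adjusted p = 0.334). Of 47 assembly factors, which build the complexes, 5 fell and none rose (median −0.21), from FOXRED1, a complex I assembly factor (−0.61, adjusted p = 0.0422), to COX20 (0.40, adjusted p = 0.217). Of 17 tricarboxylic acid cycle enzymes, 5 fell and none rose (median −0.14), with the malate dehydrogenase MDH2 lowest (−0.50, adjusted p = 0.0272). Of 6 chain genes that the naming rule leaves out, 1 fell, while the cytochrome c1 gene CYC1 (−0.65, adjusted p = 0.0639) missed the threshold. Among 15 tested regulators of mitochondrial biogenesis the median was −0.01 and 1 fell, a share close to that of all genes. This was PPARGC1A, a coactivator of NRF1 and of the estrogen-related receptors. It was at 5.01, 3.46 and 3.57 scaled FPKM in sh-NC tumors and at 2.52, 2.40 and 1.44 with sh-B7-H3 (1), a change of −0.69 ± 0.19 (adjusted p = 0.0425). YY1, whose letters were searched above, had the highest value of that list (0.47, adjusted p = 0.0520). The counts of mitochondrial ribosome proteins and assembly factors also moved with single tumors. With 1 tumor left out they ran from 1 to 28 and from 0 to 13 lower, in both cases highest without sh-B7-H3 (1) replicate 2, where 2 assembly factors were higher. No regulator and no tricarboxylic acid cycle enzyme was called lower with FPKM as deposited. Nor was any without sh-B7-H3 (1) replicate 1, sh-B7-H3 (1) replicate 3 or sh-NC replicate 1. Without the filter, and with all 15 libraries in 1 fit, no regulator was called lower and 1 was called higher.

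In sorted cells PPARGC1A was at 7.07, 4.18 and 3.57 with sh-NC, at 1.58, 3.09 and 2.20 with sh-B7-H3 (1) and at 0.941, 3.08 and 2.21 with sh-B7-H3 (2), below every sh-NC library but past the threshold with neither shRNA (adjusted p = 0.0669 and 0.0679). Between bulk and sorted sh-B7-H3 (1), 42 of 78 mitochondrial ribosome proteins, 19 of 47 assembly factors and 7 of 17 tricarboxylic acid cycle enzymes were lower in bulk tumors and none was higher, beside the 17.1% lower and 21.1% higher over all genes. Of 15 regulators, 3 were higher and none lower, a share close to that of all genes, with PPRC1, a relative of PPARGC1A, at 0.99 (adjusted p = 0.00257). As for the promoters, of 24 called members with a promoter, 11 held at least 1 of the 4 motifs, as did 15 of 44 that were not called. Among the stretches shown, SDHB, ATP5G3 and UQCR11 fell, while NDUFA6 (−0.19), NDUFA11 (−0.43), COX6A1 (−0.15), ATP5G2 (−0.52) and ATP5K (−0.08) did not pass the test.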

How the data were processed

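Polyadenylated RNA of 15 libraries was sequenced by the study in single-end runs of 75 cycles. The labels and the methods name different library kits, and the labels name build mm10. The aligner, counter and annotation are not given in the sources used here. The authors deposited FPKM for 24917 entries, in a table named for counts, and log2(FPKM + 1) of 1000 of them, used here only as a check (largest difference 8.91e-08). After 26 date-like symbols were dropped, each library was divided by its median-ratio factor, taken over the 9872 genes that reached 1 FPKM throughout. Log2(scaled FPKM + 1) was tested with limma (version 3.58.1, R 4.3.3, mean-variance trend) where at least 3 libraries of a comparison had 1 scaled FPKM, with Benjamini-Hochberg adjustment over all genes tested and calls at adjusted p below 0.05. The script was tested on simulated data. Tables ran under Python 3.11.15 with numpy 2.4.6 and pandas 2.3.3. Read totals are unknown, so no counting interval is given. The study's methods call the replicates biological samples, and the labels do not say from which animals they came.

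Members and lists were chosen with earlier results of these data known. Named genes are the highest and lowest member of each complex in 4 comparisons, tissue forms with their common partners, core subunits, and ends of the other lists. Further called members were named after their values were seen. Replicate numbers were taken from the labels, and their pairing was checked by the correlation of deviations from group means. Between sorted cells with the first and the second shRNA the same-numbered libraries correlated at 0.316, 0.330 and 0.357, so the paired fit stands beside that result. No other comparison had all same-numbered correlations above 0.1. Transcript length and GC content are medians over protein-coding GENCODE M21 transcripts.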

Additional observations from a re-analysis of the deposited data

How the results depend on the processing

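Counts of called members were recomputed with FPKM as deposited, quantile normalization, no filter, a pseudocount of 0.1, all 15 libraries in 1 fit, the replicate block, and each replicate left out. For bulk sh-B7-H3 (1) against sh-NC (28) they were 4 (FPKM as deposited), 18 (quantile), 19 (no filter), 17 (1 fit), 14 (replicate block) and 1 to 47 (leave-one-out). Over all genes the same settings called 961, 2271, 1954, 2507, 1413 and 546 to 3793, against 2520 in the main fit. For bulk against sorted sh-B7-H3 (1) (46, with NDUFA4L2 among them) they were 63 (as deposited), 28 (quantile), 37 (no filter), 39 (1 fit), 32 (replicate block) and 12 to 52. All-gene calls were 3933, 4012, 4540, 4562, 3225 and 1674 to 3814, against 4464. For bulk against sorted sh-NC (4, with COX4I2 and NDUFA4L2 among them) they were 2 (as deposited), 9 (quantile), 13 (1 fit), 7 (replicate block) and 0 to 31. All-gene calls were 652, 2122, 3082, 1998 and 139 to 4436, against 1924. For sorted sh-B7-H3 (2) (1) they were 2 (quantile), 0 (no filter), 4 (1 fit), 2 (replicate block) and 0 to 28. All-gene calls were 2282, 2211, 3155, 1395 and 962 to 3614, against 2150. For sorted sh-B7-H3 (1) (0) leave-one-out gave 0 to 5, for the shRNAs against each other (0) the replicate block gave 7 and leave-one-out 0 to 1, and for the interaction (0) leave-one-out gave 0 to 1. In that order, all-gene calls were 722 to 1948, 1864, 35 to 890 and 12 to 72. Settings of these that are not listed gave the same member count. An alternative added after seeing the data removed length and GC trends. It gave 4 calls for sorted sh-B7-H3 (2), 13 for bulk against sorted sh-NC, 44 for bulk against sorted sh-B7-H3 (1) and 21 in bulk tumors. All-gene calls were 2708, 1411, 4121 and 2802. Another left out bulk sh-NC replicate 3 with bulk sh-B7-H3 (1) replicate 2, the libraries richest in MIR6236, with 36 calls in bulk tumors and 2236 over all genes. The cause was not tested, except that leaving out libraries also lowers their number. Outside the pair of sh-B7-H3 (1) and (2), libraries share only a number.

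Some values near 0 changed sign. With FPKM as deposited SDHA moved to −0.093 (bulk against sorted sh-NC) and 0.20 (sorted sh-B7-H3 (2)) and ATP5L to 0.061 (sorted sh-B7-H3 (1)), and with quantile normalization SDHA moved to 0.043 (sorted sh-B7-H3 (2)). With libraries left out, including both MIR6236-rich ones together, values in bulk tumors ran from −0.014 to 0.31 for NDUFA12, −0.051 to 0.073 for SDHA and −0.043 to 0.36 for UQCRB. In bulk against sorted sh-NC they ran from −0.076 to 0.19 for SDHA and −0.16 to 0.45 for UQCRQ. With sorted sh-B7-H3 (1) they ran from −0.0043 to 0.65 for ATP5J2, −0.48 to 0.20 for ATP5L, −0.014 to 0.54 for NDUFS4, −0.21 to 0.29 for SDHC and −0.22 to 0.43 for UQCR10, and with sorted sh-B7-H3 (2) from −0.021 to 0.53 for NDUFS4, −0.15 to 0.12 for SDHA and −0.036 to 0.43 for UQCRFS1. FPKM as deposited shifted the medians of all genes to 0.174 in sorted sh-B7-H3 (1) and 0.213 in sorted sh-B7-H3 (2), and those of members, at 0.145 and 0.0647, stayed below them. Without sorted sh-NC replicate 3 the median of members was 0.126 in sorted sh-B7-H3 (1), with that of all genes at 0.0056.

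With 3 libraries a group, calls turned on single libraries. Depth in reads is unknown, so levels under 1 scaled FPKM, as for COX4I2 and NDUFA4L2 in sorted cells, have no known precision.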
